A study of Mus musculus with 83 samples.

Results

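The regions described here are the 1111 bins of 500 kb that tile mouse chromosomes 4, 7, 9 and 11 in build mm9, out of 4955 such bins on the 19 autosomes. They were examined in an input DNA library of 3T3-L1 adipocytes. The chromosomes were chosen by their measured median read density in this same library, the lowest of the autosomes, so their lowered level is a description and carries no test. Chromosome 4 holds 312 of the bins, chromosome 7 holds 306, chromosome 9 holds 249 and chromosome 11 holds 244. The density of a bin is its number of reads, each start and strand counted once, divided by the median autosomal bin, which held 923 reads.

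The series of 83 samples followed MLL3/MLL4, CBP/p300 and other enhancer factors during fat cell differentiation, and 1 of its libraries is used here. It is DNA of 3T3-L1 cells labelled as immortalized white preadipocytes and as mature adipocytes at day 7, taken without antibody. The growth protocol given with the sample describes brown preadipocytes from newborn mice instead. The labels give 3T3-L1 no genotype, and the treatment protocol names an induction mixture of indomethacin, dexamethasone, IBMX, T3 and insulin. No second input library was used, so no value below has a replicate check, and intervals cover counting error only.

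3T3-L1 is an established clonal line of mouse fibroblasts that accumulates lipid droplets when treated with adipogenic hormones, and long-passaged 3T3 lines are known to be aneuploid. Input DNA is sheared chromatin sequenced without enrichment, and serves as the reference for protein binding measured in the same cells. As background, the number of reads that an input places on a region depends on the copies of that region, on how uniquely its reads align, on its base composition and on shearing. Mouse chromosomes have their centromere near one end, and assemblies open each chromosome with a stretch of unsequenced bases. Chromosome 7 carries Cebpa, a master regulator of adipocyte differentiation, and chromosome 4 carries Plin2, a lipid droplet protein. Fasn, fatty acid synthase, lies on chromosome 11. No mm9 gene positions were used, so no gene is placed in a bin here.

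The deposited file listed 5064617 reads, of which 4849493 lay on autosomes and 4701929 remained after repeats of a start and strand were removed (3.04%). The chosen bins held 830119 of the kept reads. At this depth the counting error of a median bin is 3.29% of its value, so differences of a few percent between single bins are not resolvable.

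Chromosome 7 had the lowest median density, 0.756 with quartiles of 0.610 and 0.856. Chromosome 11 followed at 0.851 (quartiles 0.749 and 0.948). Chromosome 4 was at 0.874 (quartiles 0.730 and 1.02), and chromosome 9 at 0.883 (quartiles 0.790 and 0.967). Chromosome 7 was thus set apart from the others, while chromosomes 11, 4 and 9 lay close together. The limit between chosen and other chromosomes fell in a narrow gap, with chromosome 9 at 0.883 just inside it and chromosome 14 at 0.888 just outside. The other 15 autosomes ran from 0.888 to 1.61, with chromosome 6 highest.

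**Figure D1:**
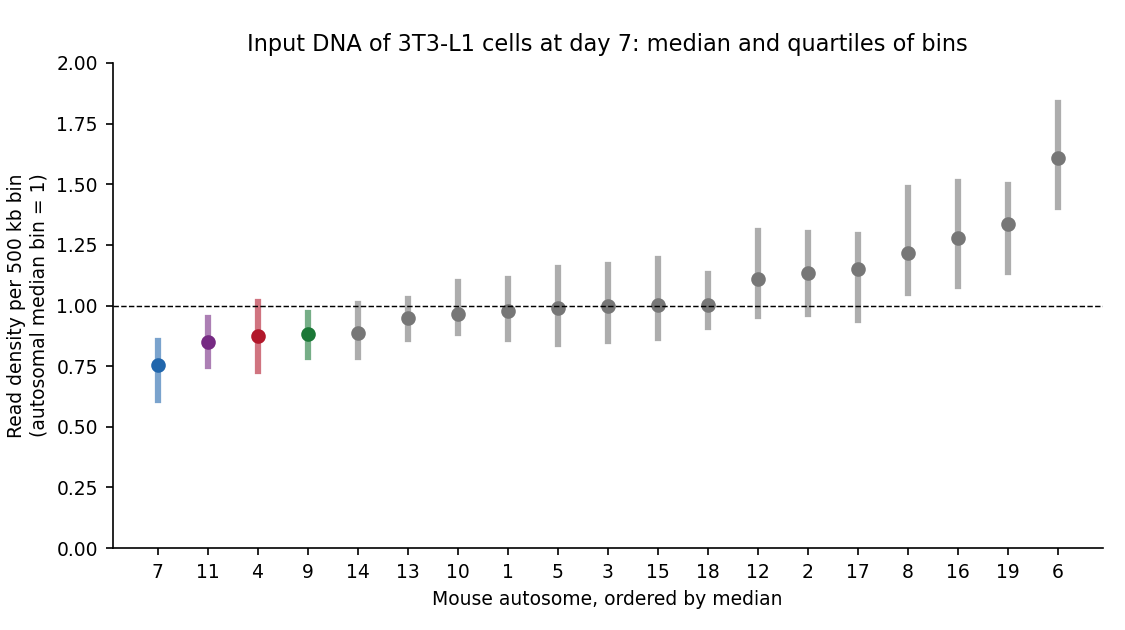
Median read density of the 500 kb bins of each mouse autosome (points) with the quartiles of its bins (bars), in units of the autosomal median bin (dashed line at 1), ordered by median. Chromosomes 7, 11, 4 and 9 (coloured) are the lowest, from 0.756 to 0.883, and chromosome 14 follows at 0.888.

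Counted over whole chromosomes instead of by the median bin, the order was slightly different. Chromosome 7 had 1265 kept reads per Mb (95% Poisson interval 1260 to 1271), the fewest of the autosomes. Chromosome 14 was second lowest at 1546 (1539 to 1553), below chromosome 4 at 1564 (1558 to 1571), chromosome 11 at 1594 (1587 to 1601) and chromosome 9 at 1607 (1600 to 1614). When stretches of 10 kb without any read were taken out of the length, chromosome 14 moved to 1680 reads per occupied Mb. That is above chromosome 7 at 1437, chromosome 11 at 1640, chromosome 4 at 1641 and chromosome 9 at 1655, so the order by median bin returned.

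A lowered median requires many lowered bins, so the counts of low bins that follow are partly fixed by the choice of chromosomes. Of the 1111 bins, 721 (64.9%) were under 0.9, against a background of 33.7% of all autosomal bins. Bins under 0.75 numbered 339 (30.5%), where the background is 14.1%, and bins under 0.5 numbered 84 (7.56%), where it is 5.29%. Nothing is read from these gaps, because the density itself chose the chromosomes. Chromosome 7 had the most low bins, with 253 of its bins (82.7%) under 0.9 and 146 (47.7%) under 0.75. On chromosome 9, 136 bins (54.6%) were under 0.9 and 42 (16.9%) under 0.75, so its shift was broad and shallow. Chromosome 4 had 176 bins (56.4%) under 0.9 and 89 (28.5%) under 0.75, and chromosome 11 had 156 (63.9%) and 62 (25.4%).

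None of the 4 chromosomes was low everywhere. Usable bins are those in which under 50% of the 10 kb windows held no read. Of these, 84 of 298 on chromosome 4 (28.2%) lay above 1, the autosomal median. The same was true of 52 of 243 bins of chromosome 9 (21.4%), 37 of 238 of chromosome 11 (15.5%) and 24 of 271 of chromosome 7 (8.86%). In windows of 10 Mb the contrast between chromosomes was sharper. Chromosome 4 had 4 of 16 windows at or above 1 and 5 under 0.75, while chromosome 7 had 0 of 16 at or above 1 and 7 under 0.75. Chromosome 9 had 0 of 13 windows at or above 1 and 0 under 0.75, its windows spanning 0.774 to 0.957. Chromosome 11 had 0 of 13 at or above 1 and 2 under 0.75. On the other autosomes, 118 of 200 windows (59%) were at or above 1 and 5 (2.5%) were under 0.75.

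Density was uneven along each of the chromosomes. Each series of bins was divided by least squares into segments of at least 5 Mb, and neighbours whose medians differed by less than 0.1 were joined. This gave 11 segments on chromosome 4, 9 on chromosome 7, 6 on chromosome 9 and 12 on chromosome 11. The rule fits flat levels only, so it divides a slope or a wave into steps as well. All 19 autosomes (100%) had at least 1 step by this rule, with 5 to 19 segments and a median of 10 on the other 15. Having steps therefore does not set the chosen chromosomes apart. The spread between neighbouring bins was 8.51% to 10.1% of the chromosome median, where counting error alone would give 3.49% to 3.75%. Neighbouring bins thus differed by more than counting error on each of the 4.

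To separate broad plateaus from local waves, the same rule was run with a minimum segment of 20 Mb, a setting chosen after the shorter segments had been seen. It left 12 long segments on the 4 chromosomes and 67 on all autosomes, and 18 of 19 autosomes kept a step. Of the 67, 4 had a median under 0.75, and these 4 were on chromosomes 7, 4, 7 and 11. The lowest was the centromere-side segment of chromosome 7 at 0.631, followed by the distal segments of chromosome 4 at 0.706, chromosome 7 at 0.713 and chromosome 11 at 0.745. The distal segment of chromosome 9, at 0.791, was the fifth. Close to it came segments of chromosomes 15 and 13, which were not chosen, both at 0.796. Nothing is read from this order, because the density itself chose the chromosomes.

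**Figure D2:**
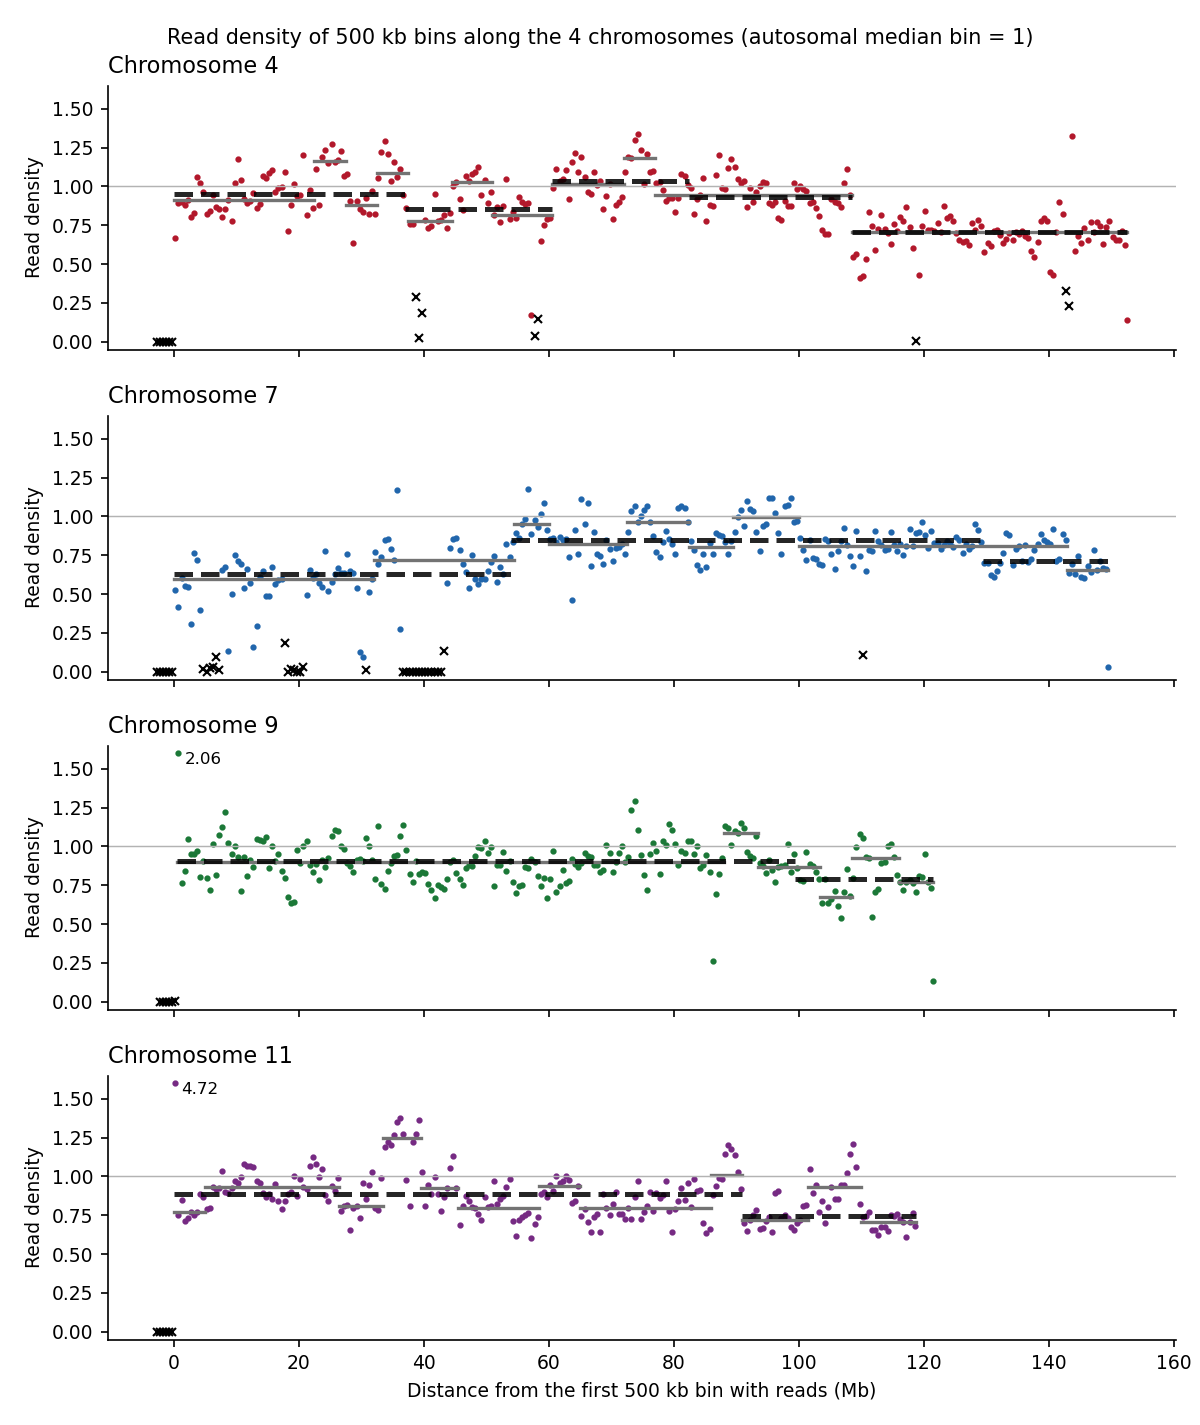
Read density of each 500 kb bin (points; autosomal median bin = 1) against distance from the first bin with reads, for chromosomes 4, 7, 9 and 11; crosses are bins in which 50% or more of the 10 kb windows are empty, grey lines the medians of segments of at least 5 Mb and dashed lines those of at least 20 Mb. Chromosome 4 drops to 0.706 in its last segment, chromosome 7 starts at 0.631, and chromosomes 9 and 11 have 2 shallow long segments each; 2 points above the axis are drawn at its top with their values, 2.06 and 4.72.

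Chromosome 4 was uneven, with a low distal segment. Its first 4 long segments had medians of 0.953, 0.853, 1.03 and 0.931, on either side of the autosomal median. The last, chr4:111500001-155629716, covers 44.1 Mb and had a median of 0.706 over 86 usable bins. Of those 86 bins, 85 were under 0.9, 63 were under 0.75 and 1 was above 1. Of the 75 usable bins of the chromosome under 0.75, those 63 lay in this segment, so most of its low bins sat in the distal part. Cut into 3 equal runs of usable bins, the chromosome had medians of 0.944, 0.985 and 0.713. The median of the last segment was 0.759 times that of the one before. Among the 48 borders between long segments on the autosomes, 1 on chromosome 15 had a lower ratio, 0.734. That order ranks drops only, and 29 of the 48 borders were drops. Rises of 1.45, 1.41, 1.34 and 1.33 times on chromosomes 2, 3, 7 and 5 were larger changes than the drop on chromosome 4.

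The border on chromosome 4 lay between a local peak and a local trough. The 5 bins before position 111500000 ran from 0.866 to 1.11, with a median of 0.948. The 5 bins after it ran from 0.410 to 0.568, with a median of 0.531, so the sets did not overlap. Those 5 bins form a trough: the next bin, chr4:114000001-114500000, was at 0.835. When segments of 5 bins were allowed, the trough became one of its own at 0.531, and the stretch from 114000001 to the end had a median of 0.711. In bins of 100 kb, the median was 0.764 from 5 to 2.5 Mb before the border and 0.970 over the 2.5 Mb before it. It was 0.423 over the 2.5 Mb after the border and 0.775 over the 2.5 Mb after that. Outside the peak and the trough, the levels on both sides within 5 Mb were thus close. The difference between the long segments lies on a wider scale, with 10 Mb windows at 0.997 and 0.893 before 110000000, 0.726 across the border, and 0.720 and 0.691 after it.

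Low-score reads, those with a score under 50 as explained below, moved with the trough. In 100 kb bins their median share was 11.5% and 11.2% in the stretches before the border, 25.6% in the trough and 10.7% in the 2.5 Mb beyond it. That last stretch also contains the bin chr4:115000001-115500000, at 0.592 with 27.8% low-score reads. Low density and a raised low-score share thus coincided in more than one place here, and the part of the score in them was not tested.

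**Figure D3:**
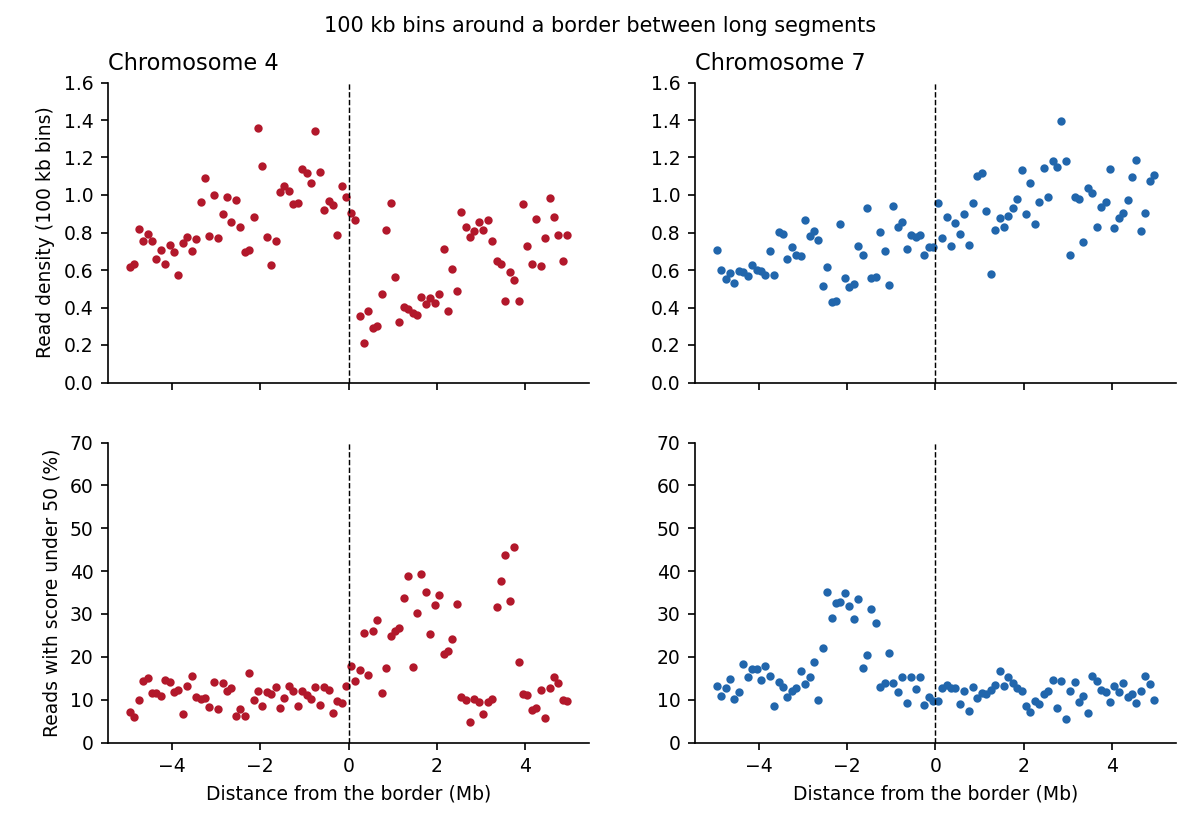
Read density (top, autosomal median = 1) and share of reads with a score under 50 (bottom, percent) in 100 kb bins within 5 Mb of a border between long segments on chromosome 4 (left) and chromosome 7 (right); the dashed line is the border. On chromosome 4 successive stretches of 2.5 Mb have medians of 0.764, 0.970, 0.423 and 0.775, with the low-score share raised in the trough; on chromosome 7 they have 0.628, 0.710, 0.899 and 0.991.

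The proximal part of chromosome 4 was wavy rather than flat. Before the distal drop, the median of segments of at least 5 Mb was highest at chr4:75000001-80000000, 1.19, and lowest at chr4:40500001-47500000, 0.778. The bin with the highest density of the chromosome, chr4:77000001-77500000, was at 1.34 (95% interval 1.26 to 1.41). The one distal bin above 1, chr4:146500001-147000000, was at 1.33 (1.25 to 1.40), and 51.2% of its reads had a low score, so it differs from the bins around it in that respect as well. The lowest full-length bin among those with most windows occupied, chr4:60000001-60500000, was at 0.171 (0.146 to 0.200) with 75.9% low-score reads. The chromosome's last bin, 130 kb long, was at 0.141 as counted and at 0.543 per length.

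Chromosome 7 had 3 levels. Its first long segment, chr7:3000001-57000000, had a median of 0.631 over 80 usable bins, of which 79 were under 0.9 and 65 under 0.75. The middle segment, chr7:57000001-132500000, had a median of 0.847 over 150 bins, 1.34 times the first. The distal segment, chr7:132500001-152523953, had a median of 0.713 over 41 bins. Even the middle level stayed below 1, with 23 of its 150 bins above that value. Each of the 3 levels thus lay below 1, the lowest at the centromere end. The border at 57000000 was gradual beside that of chromosome 4: 100 kb bins had a median of 0.628 from 5 to 2.5 Mb before it, 0.710 over the 2.5 Mb before it, 0.899 over the 2.5 Mb after it and 0.991 over the next 2.5 Mb.

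Shorter segments split these levels further. The first 32 Mb with reads, chr7:3000001-35000000, had a median of 0.596, and chr7:35000001-57500000 had 0.717. The middle of the chromosome alternated between 0.806 and 0.999, and its longest flat stretch, chr7:103000001-146000000, had a median of 0.813 over 85 bins. The end, chr7:146000001-152523953, was at 0.658. Among bins with most windows occupied, the highest was chr7:59500001-60000000 at 1.18 (1.11 to 1.25). The next, chr7:38500001-39000000, was at 1.17 inside the low first segment, and a single 10 kb window held 193 of its 1080 reads. Without that window the bin was at 0.981. Among usable bins of full length, the lowest were neighbours, chr7:33000001-33500000 at 0.0975 and chr7:32500001-33000000 at 0.127, with low-score shares of 78.9% and 86.3%.

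Chromosome 9 had the narrowest spread of the 4. The quartiles of its usable bins spanned 19.3% of the median, against 23.4% on chromosome 11, 25.9% on chromosome 7 and 30.4% on chromosome 4. The other 15 autosomes spanned 16.2% to 33.0%, so the range over the chosen chromosomes lies inside theirs. A single segment, chr9:3000001-90500000, covered 87.5 Mb at a median of 0.90 over 175 bins. Cut into 3 equal runs, the whole chromosome had medians of 0.912, 0.880 and 0.867. The lowest segment of at least 5 Mb was chr9:106000001-111000000 at 0.672, and the highest was chr9:90500001-96000000 at 1.09. With long segments there was 1 border, from 0.904 to 0.791 at position 102000000, and the ratio of the 2 medians, 1.14, ranked 18 of 19 among autosomes. The shallow lowering of this chromosome was spread along its length.

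Single bins of chromosome 9 stood far from the rest. The first usable bin, chr9:3000001-3500000, was at 2.06 (1.97 to 2.16), with 54.5% low-score reads and 37.3% of its listed reads removed as repeats. The bin chr9:88500001-89000000 was at 0.264 (0.232 to 0.300) with 74.6% low-score reads. Both carried several times the usual share of low-score reads. Among bins without such a share, the highest was chr9:76000001-76500000 at 1.30.

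Chromosome 11 was divided into 12 segments, against 6 on chromosome 9. With 250 kb bins that contrast was lost, as chromosome 9 had 12 and chromosome 11 had 13. Its levels alternated around the median, from 0.706 at chr11:113000001-121842442 and 0.719 at chr11:94000001-104500000 to 1.24 at chr11:36500001-42500000. The long-segment rule left 1 border at position 94000000, with a median of 0.885 over 182 bins before it and 0.745 over 56 bins after it. The distal segment was not uniform: between its 2 low stretches, chr11:104500001-113000000 had a median of 0.932. The medians of 3 equal runs of usable bins went from 0.926 through 0.822 to 0.770. At the border itself the 5 bins before it ran from 0.918 to 1.20 and the 5 after it from 0.650 to 0.784, without overlap.

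The first occupied bin of chromosome 11, chr11:3000001-3500000, had the highest density of all 1111 bins, 4.72 (4.58 to 4.86), with 19.8% low-score reads and 11.9% repeats. A single 10 kb window held 608 of its 4357 reads, and the bin was still at 4.14 without it. The next highest were chr11:39000001-39500000 at 1.38 and chr11:42000001-42500000 at 1.37, both in the raised segment. The lowest bin with most windows occupied was chr11:60000001-60500000 at 0.606 (0.556 to 0.658). Unlike the other 3 chromosomes, chromosome 11 had 0 usable bins under 0.5. The same held on chromosomes 2, 10, 15, 16 and 19, which were not chosen.

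The direction along the chromosome was not shared. The last run of usable bins minus the first was -0.23 on chromosome 4, -0.16 on chromosome 11, -0.05 on chromosome 9 and 0.15 on chromosome 7. On the other autosomes this difference ran from -0.33 to 0.42 and was below 0 on 7 of 15. Chromosomes 4, 9 and 11 were thus lower in the last run than in the first, and chromosome 7 was higher.

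Empty bins played little part except on chromosome 7. Bins without any read numbered 6 on chromosome 4, 21 on chromosome 7, 5 on chromosome 9 and 6 on chromosome 11. Of these, 6, 6, 5 and 6 lay in the first 3 Mb, with which the assembly opens each chromosome. Beyond the first 3 Mb, chromosome 7 had 15 empty bins and the other 3 had 0. The other 15 autosomes had 13 such bins together, so chromosome 7 alone held 15 of 28.

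The emptiness of chromosome 7 was concentrated in its low first segment. The longest gap, chr7:39500001-46500000, spans 14 bins of which 13 held no read, and contained 121 reads in 7 Mb. Further mostly empty runs were chr7:7500001-10500000 with 163 reads and chr7:20500001-24000000 with 230 reads. The other mostly empty bins were chr7:33500001-34000000, and chr7:113000001-113500000 outside that segment. On chromosome 4 there were 4 shorter runs, the longest being chr4:41500001-43000000 with 460 reads, and on chromosomes 9 and 11 there were 0. Beyond the first 3 Mb, 10.2% of the 10 kb windows of chromosome 7 held no read, the highest share of the autosomes. Chromosome 4 had 2.82%, chromosome 9 had 0.463% and chromosome 11 had 0.328%, while the other autosomes ran from 0.229% to 5.71%, the last being chromosome 14.

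The shortfall of each chromosome can be expressed in bins, as the number of median bins by which its reads fall short of its length. Chromosome 7 fell short by 96.9 bins, of which 6 came from the first 3 Mb, 28.3 from later mostly empty bins and 62.6 from usable bins. Some mostly empty bins hold reads, so this split is by the share of empty windows. On chromosome 4 the shortfall was 48.2 bins, made of 6, 6.76 and 35.5. Chromosome 9 fell short by 32.9 bins, with 26.9 from usable bins, and chromosome 11 by 33.6, with 27.6 from usable bins. Mostly empty bins beyond the first 3 Mb added 0 on those chromosomes. On each of the 4 the usable bins made up the greatest part. Chromosome 14, just outside the choice, fell short by 41.3 bins, of which 13.9 came from later mostly empty bins and 21.4 from usable bins.

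Setting empty windows aside left the medians near their values. Density per occupied window gave 0.877 for chromosome 4, 0.768 for chromosome 7, 0.880 for chromosome 9 and 0.846 for chromosome 11. Bins with no empty window at all numbered 252, 218, 214 and 222 on chromosomes 4, 7, 9 and 11, and had medians of 0.894, 0.808, 0.895 and 0.863. Usable bins with 1 or more empty windows had lower medians on each, 0.819, 0.634, 0.826 and 0.788 in the same order. On chromosome 7 there were 53 such bins. An empty window adds no reads to its bin, so a lower density is partly built in. The median of fully covered bins was still lowest on chromosome 7.

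Each read of the deposited file carries a score between 4 and 203, and the sources used here do not say what it means. A score under 50 is called low here. Low-score reads made up 13.1% of kept reads on the 4 chromosomes and 12.6% on the other 15. By chromosome the share was 14.6% on chromosome 7, the highest of the autosomes, then 12.95% on chromosome 4, 12.8% on chromosome 9 and 12.3% on chromosome 11, where the other autosomes ran from 11.8% to 13.8%. Chromosome 7 alone lay outside that range, and chromosome 11 was 4th lowest of 19.

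The share of low-score reads was higher in low bins. Their number was not: usable bins of chromosome 7 under 0.75 held 102.8 low-score reads each and those at 0.75 or more held 103.1. The reads with a score of at least 50 numbered 458 and 710.1 per bin in the same sets. On chromosome 4 the low-score reads numbered 92.1 and 108 per bin, and the others 503 and 779. The higher share in low bins of these chromosomes thus went with fewer reads of higher score. The bins were split by their total reads, so fewer reads in the low set is fixed by the split. On chromosome 7, 48 usable bins had over 20% of low-score reads, and their median density was 0.572 against 0.815 for the other 223. Chosen for that share, these 48 also held more low-score reads, 157 per bin against 91.3. Chromosome 4 had 14 such bins, with medians of 0.575 and 0.894. Chromosome 9 had 9, with 0.725 and 0.894, and chromosome 11 had 4, with 0.684 and 0.859. The direction was the same on each, but on chromosomes 4, 9 and 11 these bins were few. Across usable bins the rank correlation of density with the low-score share was -0.52 on chromosome 7 (271 bins), -0.40 on chromosome 4 (298 bins), -0.33 on chromosome 11 (238 bins) and -0.26 on chromosome 9 (243 bins). Bins of a chromosome share the library and neighbouring bins are alike, so these values are descriptions. The share is divided by the same read count that sets the density. An even number of low-score reads per bin would therefore already give a negative value.

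**Figure D4:**
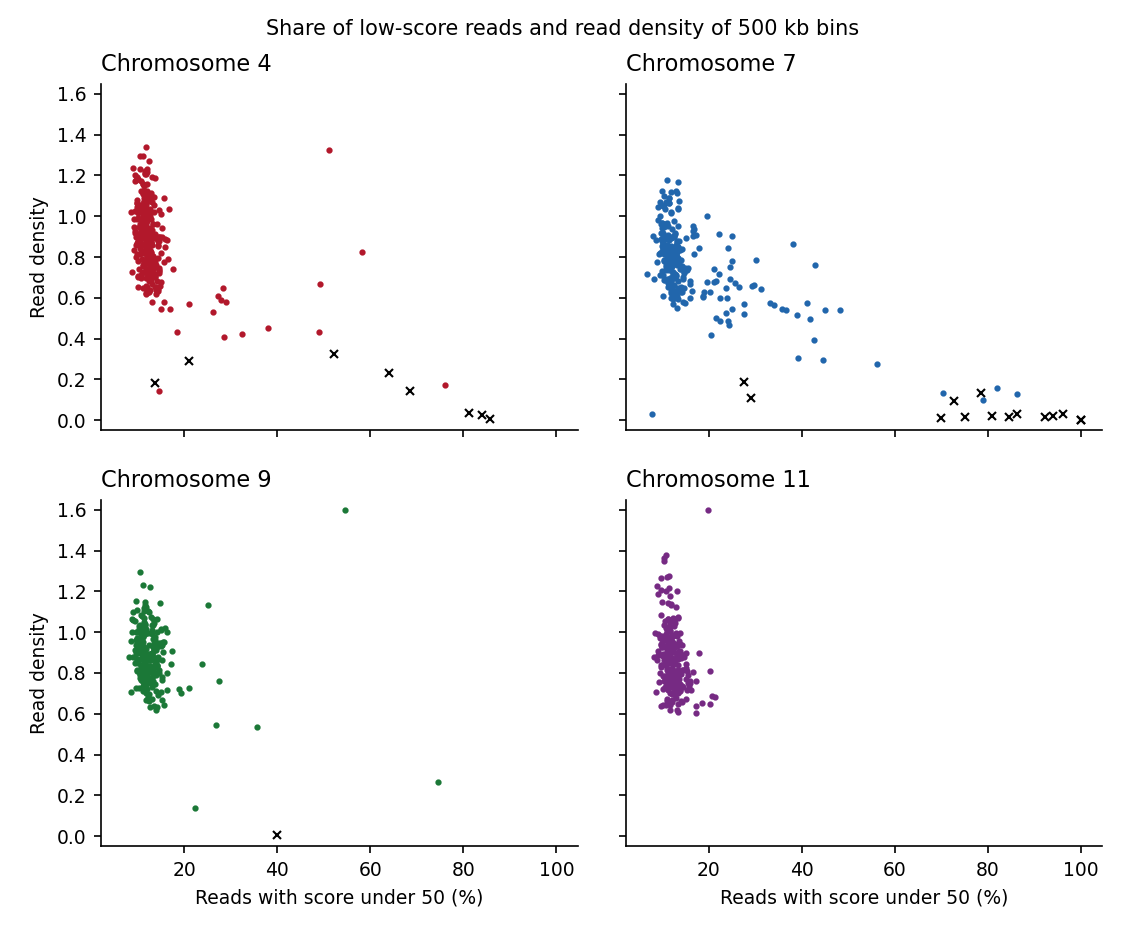
Read density of 500 kb bins (vertical, autosomal median bin = 1) against the percent of their reads with a score under 50 (horizontal) on chromosomes 4, 7, 9 and 11; points are bins in which most 10 kb windows hold reads and crosses those in which 50% or more are empty. Chromosome 7 has 48 points beyond 20% and chromosome 11 has 4; densities of 2.06 on chromosome 9 and 4.72 on chromosome 11 are drawn at the top of the axis.

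Among the 12 long segments, reads of low and higher score differed most in the first of chromosome 7. There 21.3% of reads had a low score and 4.28% of the windows in usable bins were empty. When low-score reads and the others were each divided by their own autosomal median, the segment was at 0.912 in low-score reads and at 0.577 in reads with a score of at least 50. Low-score reads were thus less lowered than the rest, and dropping low-score reads made the segment lower. The middle segment of the chromosome was at 0.823 and 0.848 on the same scales, and its distal segment at 0.708 and 0.707. The part of the score in the first segment's level was not tested beyond these values.

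The distal segment of chromosome 4 behaved otherwise. It was at 0.743 in low-score reads and at 0.701 in reads with a score of at least 50, with 15.6% of its reads low. The distal segment of chromosome 11 was at 0.761 and 0.742, and that of chromosome 9 at 0.796 and 0.790. In these segments both kinds of read showed the lowered level.

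Over whole chromosomes, reads with a score of at least 50 gave medians of 0.871 for chromosome 4, 0.749 for chromosome 7, 0.890 for chromosome 9 and 0.856 for chromosome 11. Low-score reads alone gave 0.858, 0.788, 0.850 and 0.832, and on these reads chromosome 14 was also at 0.850. The margin between chromosome 14 and the chosen chromosomes was thus lost in low-score reads, with chromosome 4 above it. Requiring a score of at least 50 and occupied windows together gave 0.873, 0.758, 0.877 and 0.848, with chromosome 14 at 0.894.

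**Figure D5:**
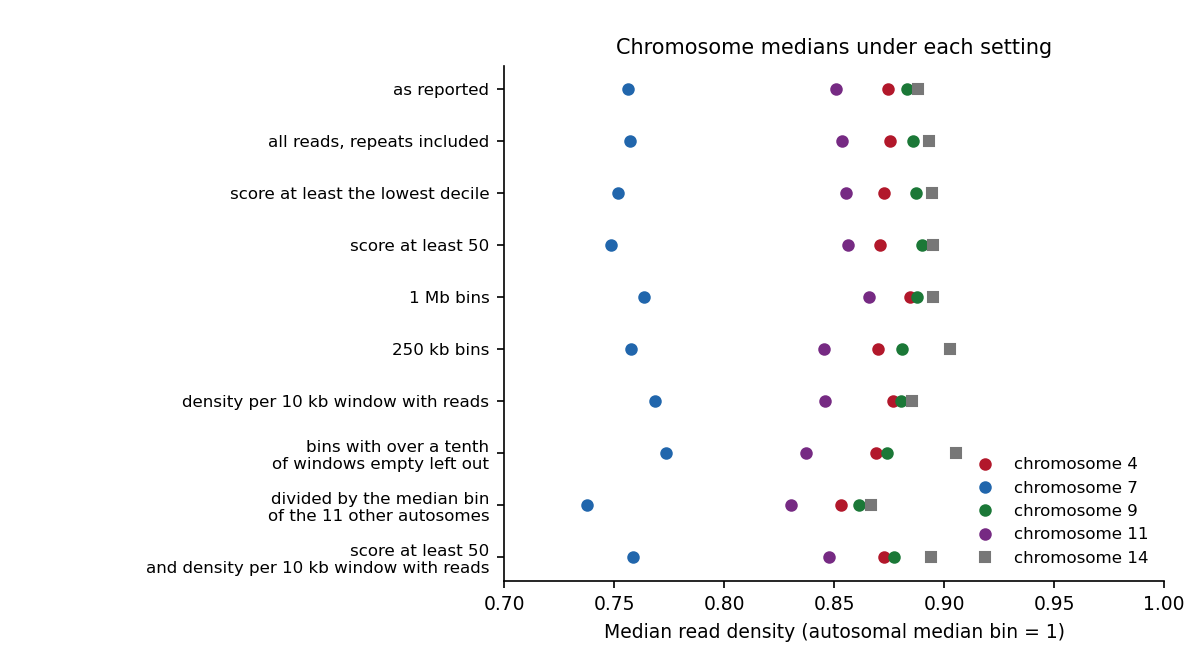
Median read density (horizontal, autosomal median bin = 1) of chromosomes 4, 7, 9, 11 and 14 under each of 10 ways of counting (rows). Chromosome 7 stays between 0.738 and 0.774 and chromosomes 11, 4 and 9 keep their order, with chromosome 14 (squares) above them in each row.

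Other properties of the reads lay within the range of the other autosomes. Of these, repeats had been removed before the density that chose the chromosomes was counted. The plus strand took 49.9% to 50.1% of kept reads on each of the 4. Repeats made up 2.51% of listed reads on chromosome 4, 2.44% on chromosome 7, 3.35% on chromosome 9 and 2.70% on chromosome 11, within the 2.41% to 6.21% of the other autosomes. Reads spanning 50 bases made up 99.4% to 99.5%. The chosen chromosomes thus stayed inside the range of the others in strand, repeats and read length. In repeats, chromosome 9 ranked 17 of 19 from the lowest.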

How the data were processed

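One input DNA library was used. The authors deposited its aligned reads as a BED file, 1 read per line, with a score per read whose meaning the sources used here do not give. The submitters' processing notes name TopHat2 2.0.10, Cufflinks 1.0.3, CASAVA 1.8.2 and SICER, with build mm9, but not which of them made this file. A loss of reads at alignment cannot be seen in the file.

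Repeats of a start and strand were removed, and reads were counted by start in 500 kb bins, which were divided by the median bin of the 19 autosomes. Emptiness was read in 10 kb windows, and bins with under 50% of windows empty are called usable. Segments came from least squares with a penalty of 3 times log(n) times the variance of neighbouring bins. The segmentation was run on simulated profiles that were flat or held a single step, with independent noise between bins. Neighbouring bins are alike in these data, so that run cannot tell steps from slopes here. Intervals are 95% exact Poisson intervals. The rule for named regions took the segments, the borders of steps, and each chromosome's 3 lowest and 3 highest usable bins, not all of which are described; long segments, mostly empty runs and other bins were chosen after their values were seen. The chromosomes and lists were chosen with earlier results of these data known. Python 3.11.15, numpy 2.4.6, pandas 2.3.3, scipy 1.17.1 and matplotlib 3.10.9 were used. The alternatives were other bin sizes, score minimums, empty windows left out, repeats kept, another baseline and other segment rules. No mm9 genome was used, so GC content was not corrected for.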

Additional observations from a re-analysis of the deposited data

How the results depend on the processing

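In each of the 10 ways of counting, chromosomes 7, 11, 4 and 9 had the 4 lowest medians of the autosomes, in that order. These ways recount the reads whose median bin chose the chromosomes, so the repeated order is no independent check. Low-score reads alone and reads per Mb were not among the 10. In both of those, chromosome 14 was below chromosome 4. Medians are given below for chromosomes 4, 7, 9 and 11 where they moved by more than the counting error of the chromosome's total reads. That error served only to pick the values listed, as it does not measure the error of a median of bins. Bins of 1 Mb gave 0.885, 0.764, 0.888 and 0.866, and bins of 250 kb gave 0.870 for chromosome 4 and 0.845 for chromosome 11. Leaving out bins with over 10% of windows empty gave 0.869, 0.774, 0.874 and 0.837. Dividing by the median bin of 11 other autosomes gave 0.853, 0.738, 0.862 and 0.830. Scores of at least the lowest decile, 37, gave 0.752 for chromosome 7, 0.887 for chromosome 9 and 0.856 for chromosome 11, and scores of at least 50 gave 0.749, 0.890 and 0.856. Density per occupied window gave 0.768 for chromosome 7 and 0.846 for chromosome 11, and with scores of at least 50 it gave 0.877 for chromosome 9.

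The number of segments depended on the rule. Chromosome 4 had 6 with 1 Mb bins, chromosome 7 had 3 when steps of at least 0.15 were required, and chromosome 9 had 12 with 250 kb bins. A minimum of 40 bins, added after seeing the data, left 5, 3, 2 and 2 on chromosomes 4, 7, 9 and 11, since it allows fewer. The cause of the other changes was not tested. The correction for GC content was not run, because no mm9 genome was used.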
